A study of Homo sapiens with 3 samples.

Results

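Polyamine metabolism was followed through 10 genes in RNA-seq libraries of 3 established human prostate cancer cell lines, PC3, DU145 and LNCAP, with 1 library per line. The genes were chosen by symbol (ODC1, AMD1, SRM, SMS, SAT1, SMOX, PAOX, AZIN1, OAZ1 and OAZ2), and each symbol was found among the 58735 annotated genes of the count and FPKM tables. PC3, derived from a bone metastasis, and DU145, derived from a brain metastasis, grow without androgen and represent castration-resistant cancer in the series; LNCAP, derived from a lymph node metastasis, depends on androgen. No treatment or engineered allele is named for any line. All were grown at 37 °C in 5% CO2 with 10% fetal bovine serum, in 3 media listed without saying which line had which, so line and medium cannot be told apart.

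Polyamines (putrescine, spermidine and spermine) are small positively charged molecules that bind nucleic acids and are needed for growth, and the prostate is known for making and secreting large amounts of them. ODC1 makes putrescine from ornithine, AMD1 supplies the aminopropyl donor by decarboxylating S-adenosylmethionine, and SRM and SMS use that donor to make spermidine and spermine. SAT1 acetylates spermidine and spermine for export or for back-conversion by the oxidase PAOX, while SMOX oxidises spermine directly. The antizymes OAZ1 and OAZ2 bind ODC1 and send it to the proteasome, and AZIN1, an ODC1-like protein without decarboxylase activity, binds the antizymes in its place; antizyme output depends on a ribosomal frameshift and ODC1 and AMD1 are also regulated in translation, which read counts do not show.

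The promoters of ODC1, SRM, AMD1 and SAT1 are given first, because 2 orders of the lines were each shared by a pair of them. ODC1 and SRM were both highest in PC3 and lowest in DU145, and AMD1 and SAT1 were both highest in LNCAP and lowest in PC3. SMOX and AZIN1 also shared an order, highest in PC3 and lowest in LNCAP, and PAOX had that of ODC1 with differences within counting error. With 3 lines few orders are possible, so some of the 10 genes must share one. Shared control of these pairs was not tested. Each window runs from 250 bases before to 50 after a RefSeq transcription start on GRCh38.p14. Capitals mark matches, on either strand, to CACGTG (the E-box bound by MYC and related factors) or TATAA (the TATA core); no printed window holds both, and matches do not overlap. The ODC1 window is that of the second of its RefSeq starts and the AMD1 window that of the first listed. The first ODC1 start, not printed, has TATAA and no CACGTG, so the CACGTG shared by the printed ODC1 and SRM windows depends on that choice. The ODC1 window lies at chr2:10447963-10448262 (minus strand) and that of SRM at chr1:11059969-11060268 (minus). That of AMD1 lies at chr6:110874535-110874834 (plus) and that of SAT1 at chrX:23782923-23783222 (plus).
ODC1: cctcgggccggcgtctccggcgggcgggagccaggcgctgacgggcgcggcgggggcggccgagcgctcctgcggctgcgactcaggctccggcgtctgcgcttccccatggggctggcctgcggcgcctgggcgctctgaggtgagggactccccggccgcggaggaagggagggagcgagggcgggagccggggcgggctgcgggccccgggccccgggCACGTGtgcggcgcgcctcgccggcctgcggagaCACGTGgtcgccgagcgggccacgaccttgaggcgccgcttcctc
SRM: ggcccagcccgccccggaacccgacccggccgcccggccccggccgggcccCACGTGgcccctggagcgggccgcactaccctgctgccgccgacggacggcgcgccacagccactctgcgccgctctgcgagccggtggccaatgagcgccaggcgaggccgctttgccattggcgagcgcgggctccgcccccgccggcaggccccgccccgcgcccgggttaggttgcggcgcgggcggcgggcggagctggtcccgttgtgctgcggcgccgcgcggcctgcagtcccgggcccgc
AMD1: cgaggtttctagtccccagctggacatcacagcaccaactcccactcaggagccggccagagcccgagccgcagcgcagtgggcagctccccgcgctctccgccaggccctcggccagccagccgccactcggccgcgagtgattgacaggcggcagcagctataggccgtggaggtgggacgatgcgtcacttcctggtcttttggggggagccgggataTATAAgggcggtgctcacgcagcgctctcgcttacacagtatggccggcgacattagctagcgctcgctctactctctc
SAT1: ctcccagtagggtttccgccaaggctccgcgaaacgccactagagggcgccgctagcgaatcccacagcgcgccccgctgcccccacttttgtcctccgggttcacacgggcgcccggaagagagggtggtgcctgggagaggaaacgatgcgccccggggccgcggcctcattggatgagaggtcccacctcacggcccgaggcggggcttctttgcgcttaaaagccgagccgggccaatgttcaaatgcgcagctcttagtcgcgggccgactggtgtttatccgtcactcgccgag
CACGTG occurred 2 times in the printed ODC1 window, 0 times in that of the first ODC1 start and 1 time in that of SRM. It was in none of the windows of the other 5 genes read (AMD1, SMS, SAT1, OAZ1 and OAZ2). Of all 35116 RefSeq promoter windows, 7.26% held it. That share is per window, while ODC1 and AMD1 had more than 1 window. TATAA was found at the other ODC1 start, at the listed AMD1 starts except the second, and in OAZ1, against 20.4% of all windows. In OAZ1 it began 6 bases after the start, not before it as in ODC1 and AMD1. A full androgen response element (AGAACA, 3 bases of any kind, then its reverse complement) was found in none of these 7 genes and in 0.00285% of all windows. So rare a motif would be missing from nearly any 7 genes, so its absence is uninformative. A match is a description of the letters and no evidence of binding. No window was read for SMOX, PAOX or AZIN1, so these counts do not cover them.

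The libraries held 15319045 counts in PC3, 15878546 in DU145 and 15393103 in LNCAP, and all 10 genes passed the filter of 1 CPM (counts scaled to library size) in at least 1 library. With no replicates, no difference between lines has a replicate check; the intervals below are 95% counting intervals, which compare these libraries and leave out variation between cultures. Mitochondrial genes took 4.35% of counts in PC3, 5.6% in DU145 and 7.97% in LNCAP, and scaling without them changed no 4-fold call among the 10 genes. The epithelial markers summed to 886, 2172 and 1548 normalised CPM in PC3, DU145 and LNCAP, with none of the 5 at 0. Single markers differed: in PC3 and LNCAP, CDH1 was at 2.22 and 786 CPM and EPCAM at 7.52 and 61.7. KRT19 went the other way, at 429 in PC3 and 24.5 in LNCAP. KRT8 and KRT18 were under 2-fold apart between PC3 and LNCAP. Androgen-responsive markers summed to 8.64 CPM in PC3, 0 in DU145, where all 4 were at 0, and 4213 in LNCAP. Lists for immune cells, endothelial cells and fibroblasts summed to at most 20.2 CPM in any library; the highest single genes were PECAM1 at 20.1 CPM in PC3, VWF at 9.21 CPM in LNCAP and CD79A at 6.06 CPM in DU145.

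Among the synthesis genes, ODC1 and AMD1 differed most, and in different lines. ODC1 (ENSG00000115758, chromosome 2, 10439968 to 10448504, minus strand, GRCh38) had 20228 counts in PC3, 3946 in DU145 and 7301 in LNCAP, which are 1323, 252 and 467 normalised CPM. PC3 thus held by far the most ODC1 reads and DU145 the fewest: ODC1 was 2.83-fold higher in PC3 than in LNCAP (95% counting interval 2.76 to 2.91), 1.85-fold lower in DU145 than in LNCAP (1.78 to 1.93), and 5.25-fold higher in PC3 than in DU145 (5.08 to 5.44). Bulk counts do not tell fewer cells with a transcript from less of it per cell.

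AMD1 (ENSG00000123505, chromosome 6, 110874770 to 110895713, plus strand) was highest in LNCAP, with 1712 counts in PC3, 2409 in DU145 and 21439 in LNCAP (112, 154 and 1371 normalised CPM). The castration-resistant lines lay close together and far below LNCAP. AMD1 was 12.2-fold lower in PC3 (11.7 to 12.9) and 8.92-fold lower in DU145 (8.55 to 9.31), and 1.37-fold lower in PC3 than in DU145 (1.29 to 1.46).

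The aminopropyltransferase genes moved less. SRM (chromosome 1, 11054584 to 11060024, minus strand), the spermidine synthase gene, had 4581, 1664 and 3850 counts in PC3, DU145 and LNCAP, or 300 normalised CPM in PC3, 106 in DU145 and 246 in LNCAP. It was 1.22-fold higher in PC3 (1.17 to 1.27) and 2.32-fold lower in DU145 (2.19 to 2.46) than in LNCAP, the same order of lines as for ODC1 but over a narrower range, and 2.82-fold higher in PC3 than in DU145 (2.67 to 2.99). SMS (chromosome X, 21940573 to 21994835, plus strand), the spermine synthase gene, stood at 103 normalised CPM in PC3, 69.7 in DU145 and 174 in LNCAP. SMS was lower in both lines than in LNCAP, by 1.69-fold in PC3 (1.58 to 1.80) and 2.5-fold in DU145 (2.33 to 2.68), and 1.48-fold higher in PC3 than in DU145 (1.37 to 1.6).

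**Figure D1:**
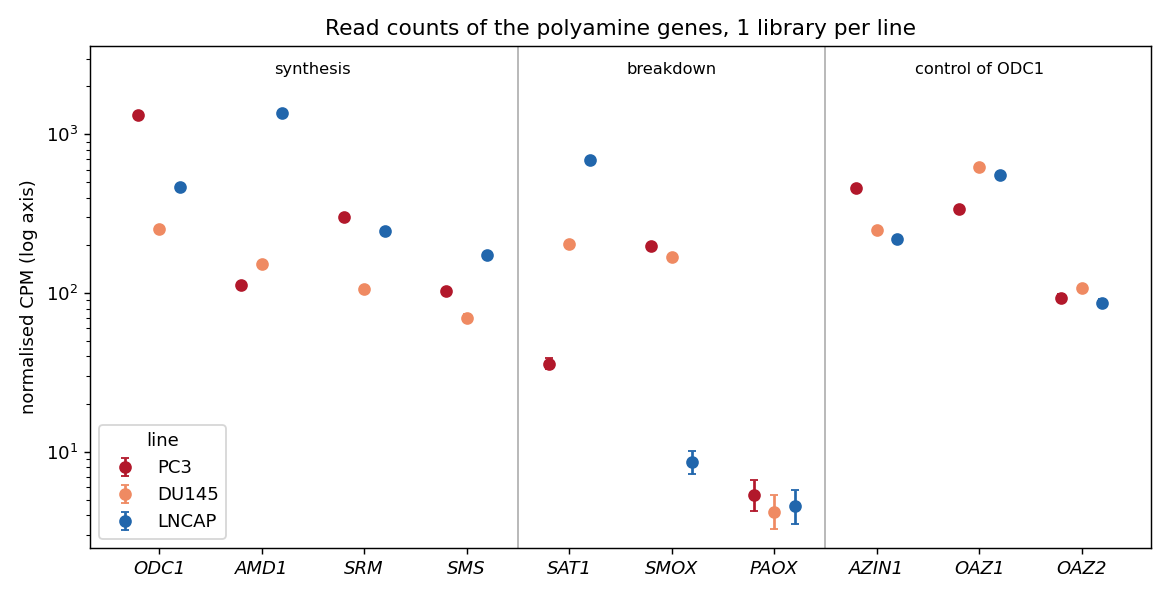
Normalised CPM (log axis) of the 10 genes in PC3, DU145 and LNCAP, grouped by role; bars are 95% Poisson counting intervals and are mostly smaller than the points. SMOX is at 198, 168 and 8.64 CPM and AMD1 at 112, 154 and 1371 CPM in PC3, DU145 and LNCAP, opposite orders of the castration-resistant lines and LNCAP, while OAZ2 is nearly level.

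Of the breakdown genes, SAT1 and SMOX differed widely between the lines and PAOX did not differ beyond counting error. SAT1 (ENSG00000130066, chromosome X, 23783173 to 23786226, plus strand) had 551 counts in PC3, 3185 in DU145 and 10797 in LNCAP, or 36 normalised CPM in PC3, 203 in DU145 and 691 in LNCAP. All 3 lines were well apart, with SAT1 19.2-fold lower in PC3 than in LNCAP (17.6 to 20.9), 3.4-fold lower in DU145 than in LNCAP (3.27 to 3.54) and 5.64-fold lower in PC3 than in DU145 (5.15 to 6.18).

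SMOX (ENSG00000088826, chromosome 20, 4120980 to 4187747, plus strand) had 3023 counts in PC3, 2641 in DU145 and 135 in LNCAP, which are 198, 168 and 8.64 normalised CPM. The castration-resistant lines were nearly level and both far above LNCAP. SMOX was 22.9-fold higher in PC3 (19.3 to 27.4) and 19.5-fold higher in DU145 (16.4 to 23.4), against 1.17-fold higher in PC3 than in DU145 (1.11 to 1.24). PAOX (chromosome 10, 133379234 to 133391694, plus strand) had only 82 counts in PC3, 66 in DU145 and 71 in LNCAP, at most 5.37 normalised CPM, and no difference between lines was detectable at this depth: PC3 over LNCAP was 1.18 (0.849 to 1.65), DU145 over LNCAP 0.927 (0.653 to 1.31) and PC3 over DU145 1.27 (0.91 to 1.79).

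Of the genes that control the ODC1 protein, AZIN1 and OAZ1 stood apart in PC3, in opposite directions. AZIN1 (chromosome 8, 102826357 to 102893864, minus strand) was at 456 normalised CPM in PC3, 248 in DU145 and 220 in LNCAP, 2.07-fold higher in PC3 (1.99 to 2.16) and 1.13-fold higher in DU145 (1.08 to 1.18) than in LNCAP. AZIN1 was 1.84-fold higher in PC3 than in DU145 (1.76 to 1.91). OAZ1 (chromosome 19, 2269509 to 2273490, plus strand) was at 337 normalised CPM in PC3, 626 in DU145 and 556 in LNCAP, 1.65-fold lower in PC3 (1.59 to 1.71) and 1.13-fold higher in DU145 (1.09 to 1.16) than in LNCAP. OAZ1, the more abundant antizyme transcript per length in each line, was 1.86-fold lower in PC3 than in DU145 (1.79 to 1.92). OAZ2 (chromosome 15, 64687573 to 64703281, minus strand) varied least of the 10 by fold, at 93.4, 108 and 87.1 normalised CPM in PC3, DU145 and LNCAP; its PC3 to LNCAP ratio of 1.07 (0.995 to 1.16) was within counting error, and it was 1.24-fold higher in DU145 (1.15 to 1.33).

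Other gene models that could share reads with these genes had few counts. The 7 annotated pseudogenes named after these genes (AMD1P1 to AMD1P4, SRMP1, SRMP2 and ODCP) had at most 9 counts in any library. Another gene model overlaps ODC1, PAOX, AZIN1, OAZ1 and OAZ2, and the largest count of any of these 10 models was 42, for AZIN1-AS1 in PC3. The strand setting of the counting is not given in the sources used here, so reads of AZIN1, OAZ1 and OAZ2 and their opposite-strand neighbours cannot be told apart.

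The share of the 10 polyamine genes that stood far apart between lines was close to that of all genes. A 4-fold call needed a log2 ratio of 2 or beyond, computed after adding 0.5 to scaled counts, and a counting interval without 1. In PC3 against LNCAP, SMOX was called higher (1 of 10, against 13.0% of the 18025 genes tested) and AMD1 and SAT1 lower (2 of 10, against 13.4%). At 2-fold, ODC1, SMOX and AZIN1 were higher (3 of 10, against 22.6%) and AMD1 and SAT1 lower (2 of 10, against 23.6%). The median log2 ratio of the 10 genes was 0.17, beside -0.01 over all genes tested.

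In DU145 against LNCAP, SMOX was the gene called 4-fold higher (1 of 10, against 13.7% of genes tested) and AMD1 the gene called lower (1 of 10, against 12.1%). At 2-fold, SMOX was again higher (1 of 10, against 22.9%), and AMD1, SRM, SMS and SAT1 were lower (4 of 10, against 23.1%). The median log2 ratio was -0.50 over the 10 genes and -0.00333 over all genes tested. SAT1, at a log2 ratio of -1.76, missed the 4-fold limit in this line.

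In PC3 against DU145, ODC1 was called 4-fold higher (1 of 10, against 8.54%) and SAT1 4-fold lower (1 of 10, against 10.6%). At 2-fold, ODC1 and SRM were higher (2 of 10, against 18.5%) and SAT1 lower (1 of 10, against 19.3%). PC3 and DU145 lay on opposite sides of LNCAP, with both counting intervals excluding 1, for ODC1, SRM and OAZ1 (3 of 10, against 12.7% of genes tested, a share that depends on the counts behind each gene); both ratios share the LNCAP library. The median log2 ratio was 0.29 over the 10 genes and 0 over all genes tested. AMD1 and SMOX, the genes far from LNCAP in both lines, were under 2-fold apart between PC3 and DU145.

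**Figure D2:**
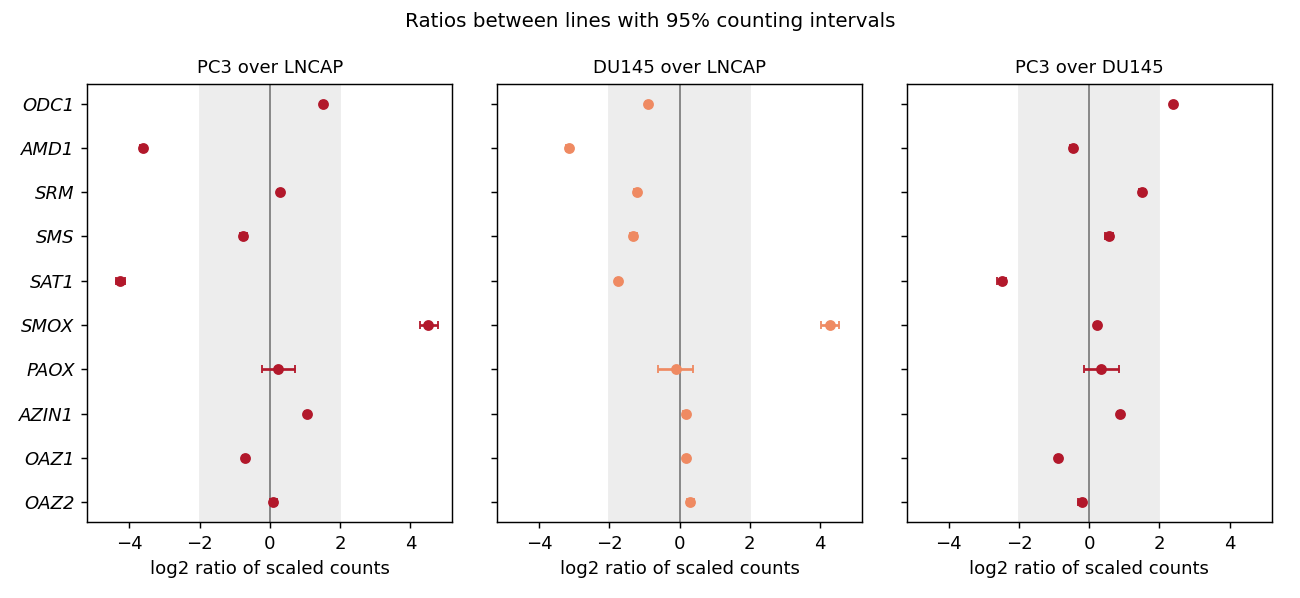
Log2 ratios of scaled counts with 95% counting intervals for the 10 genes in 3 comparisons of lines; grey marks less than 4-fold. AMD1 lies at -3.61 and -3.16 and SMOX at 4.51 and 4.28 against LNCAP in PC3 and DU145, while ODC1 lies at 1.5 and -0.89 and SAT1 at -4.26 and -1.76.

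The series sets PC3 and DU145 together against LNCAP, and edgeR's quasi-likelihood test was fitted that way, with the difference between PC3 and DU145 standing for the spread of the class and 1 residual degree of freedom. None of the 10 genes, and 0% of the 18025 tested genes in either direction, passed an adjusted p of 0.05. SMOX had a log2 fold change of 4.41 (adjusted p = 0.289, higher in 2 of 2 lines) and AMD1 -3.37 (adjusted p = 0.304, lower in 2 of 2 lines) by edgeR. These were also the 2 polyamine genes among the 1746 genes (9.69%) with an unadjusted p under 0.05. SAT1 followed at -2.53 (edgeR adjusted p = 0.587, lower in 2 of 2 lines) and SMS at -1.01 (adjusted p = 0.649, lower in 2 of 2 lines). DESeq2, which called 5.06% of genes higher and 2.19% lower, called SMOX higher (adjusted p = 2.48e-08) and AMD1 lower (adjusted p = 2.75e-05), and limma-voom called no gene, with 1334 at an unadjusted p under 0.05.

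Levels of different genes were compared per length, as the deposited FPKM (reads scaled by gene length and library size), and each line had a different leading transcript. In PC3 the order was ODC1 at 443 FPKM, SRM at 157, OAZ1 at 97.5, AZIN1 at 70.4, SMOX at 66.6, SMS at 47.4, AMD1 at 15.8, SAT1 at 14.3, OAZ2 at 12.1 and PAOX at 2.34. ODC1 alone made up 47.8% of the summed FPKM of the 10 genes there. In DU145 OAZ1 led at 182 FPKM, followed by ODC1 at 84.8, SAT1 at 81.3, SMOX at 57.1, SRM at 55.9, AZIN1 at 38.6, SMS at 32.2, AMD1 at 21.9, OAZ2 at 14.1 and PAOX at 1.85. In LNCAP SAT1 led at 271 FPKM and AMD1 came next at 192, ahead of OAZ1 at 159, ODC1 at 155, SRM at 127, SMS at 79.1, AZIN1 at 33.6, OAZ2 at 11.2, SMOX at 2.88 and PAOX at 1.96. Neighbours in these orders whose counting intervals overlap are AZIN1 and SMOX, and AMD1 and SAT1, in PC3; ODC1 and SAT1, and SMOX and SRM, in DU145; and OAZ1 and ODC1, and SMOX and PAOX, in LNCAP.

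The summed FPKM of the 10 genes was 926 in PC3, 570 in DU145 and 1032 in LNCAP. Synthesis genes held 71.6% of it in PC3, 34.2% in DU145 and 53.5% in LNCAP. Breakdown genes held 9% in PC3, 24.6% in DU145 and 26.8% in LNCAP, and the control genes 19.4%, 41.2% and 19.7% in the same lines. Listed gene lengths exceed those of the longest annotated coding transcripts, for example 7671 against 1934 bases for OAZ2 and 7027 against 3438 bases for AMD1. With the transcript lengths instead, the same genes led (ODC1 in PC3, OAZ1 in DU145, SAT1 in LNCAP), and synthesis genes held 59.5%, 22.1% and 41.3% in PC3, DU145 and LNCAP. Breakdown genes then held 8.8%, 22.5% and 31.3%, and control genes 31.7%, 55.4% and 27.5%, so that the control share of PC3, just under that of LNCAP by FPKM, was above it.

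**Figure D3:**
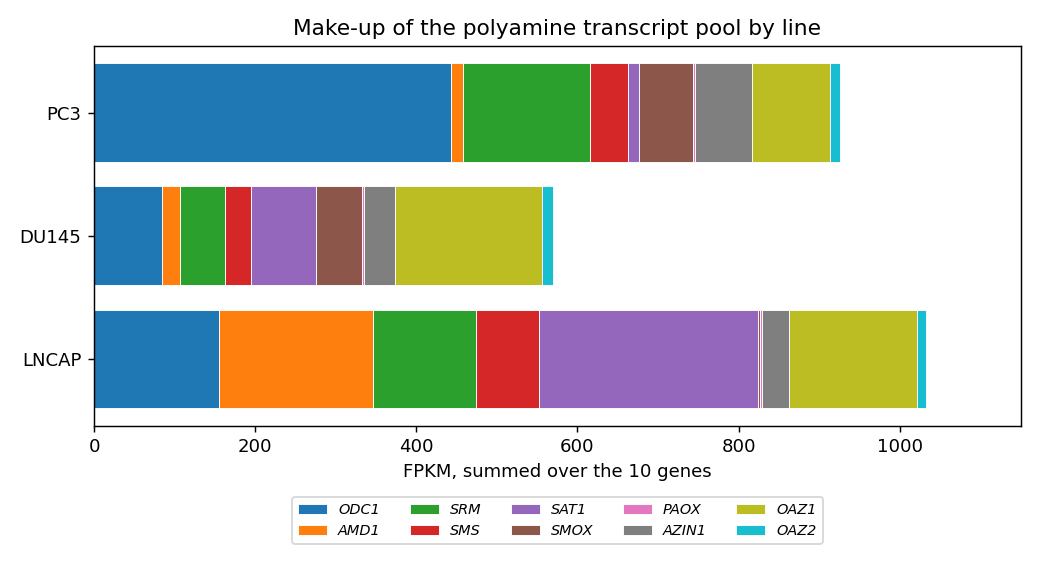
FPKM of the 10 genes stacked for PC3, DU145 and LNCAP. The bars sum to 926, 570 and 1032 FPKM; ODC1 takes the largest piece in PC3, OAZ1 in DU145 and SAT1 in LNCAP, where the SMOX piece of 2.88 FPKM is barely visible.

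Ratios between genes within a library, which do not depend on scaling the libraries to each other, differed between the lines by very different amounts. ODC1 over the summed antizymes was 4.04 in PC3, 0.432 in DU145 and 0.909 in LNCAP on FPKM, and AZIN1 over the antizymes was 0.643, 0.197 and 0.198, nearly level in DU145 and LNCAP. PC3 thus had the most transcript of ODC1 and of its antizyme inhibitor per antizyme transcript. AMD1 over ODC1 was 0.0357 in PC3, 0.258 in DU145 and 1.24 in LNCAP. SMOX over SAT1, the direct oxidase of spermine over the acetyltransferase, was 4.65 in PC3, 0.703 in DU145 and 0.0106 in LNCAP. Another length for a gene rescales a ratio of 2 genes equally in every line, so the order of the lines in these last ratios does not rest on it. With transcript lengths, SMOX over SAT1 was 2.52 in PC3, 0.38 in DU145 and 0.00573 in LNCAP, and AMD1 over ODC1 was 0.0653, 0.471 and 2.27. ODC1 over the antizymes was then 1.46 in PC3, 0.158 in DU145 and 0.333 in LNCAP, and AZIN1 over the antizymes 0.282, 0.0874 and 0.088. The remaining pairs spanned a narrower range on FPKM: SRM over SMS was 3.31 in PC3, 1.73 in DU145 and 1.61 in LNCAP, and OAZ1 over OAZ2 was 8.06, 13 and 14.2.

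The genes around polyamine metabolism were read from 5 lists with 33 genes, of which 30 were tested. In PC3 against LNCAP 2 were 4-fold higher and 4 lower (13.0% and 13.4% of all genes tested), in DU145 against LNCAP 4 were higher and 4 lower (13.7% and 12.1%), and in PC3 against DU145 1 was higher and 4 lower (8.54% and 10.6%). The median log2 ratios were 0.09, 0.13 and -0.28 in these comparisons, beside -0.01, -0.00333 and 0 over all genes tested. Of 6 tested genes for arginine and ornithine, the precursors of putrescine, 2 were 4-fold higher and 2 lower than LNCAP in each line. The shares over all genes tested are 13.0% higher and 13.4% lower in PC3, and 13.7% and 12.1% in DU145.

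ARG2, a mitochondrial arginase that makes ornithine, was at 5.3 normalised CPM in PC3, 3.45 in DU145 and 43.4 in LNCAP, 8.18-fold lower in PC3 (6.49 to 10.4) and 12.6-fold lower in DU145 (9.53 to 16.9). OAT, an aminotransferase that interconverts ornithine and glutamate semialdehyde, was at 71.3 in PC3, 139 in DU145 and 10.2 in LNCAP, 7.01-fold higher in PC3 (5.93 to 8.33) and 13.7-fold higher in DU145 (11.6 to 16.1). ASS1, an enzyme of arginine synthesis, was at 0.785, 22.9 and 119 normalised CPM in PC3, DU145 and LNCAP, 151-fold lower in PC3 (86.5 to 293) and 5.19-fold lower in DU145 (4.63 to 5.82). Both lines thus had less ARG2 and ASS1 and more OAT than LNCAP, and ASS1 was also 29.2-fold lower in PC3 than in DU145 (16.5 to 57). AGMAT, named as an agmatinase, had 49 counts in PC3, 22 in DU145 and 4 in LNCAP, and was 12.5-fold higher in PC3 (4.59 to 47.8) and 5.49-fold higher in DU145 (1.86 to 21.9).

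The 9 genes of the methionine cycle and of methylthioadenosine salvage, which make the precursor of the aminopropyl donor and recycle its by-product, differed less. MAT1A, the liver form of methionine adenosyltransferase, was the only one 4-fold apart from LNCAP. It was 1 of 9 called lower in each line, against 13.4% of all genes tested in PC3 and 12.1% in DU145. MAT1A had 0 counts in PC3, 2 in DU145 and 23 in LNCAP. It was at least 7.5-fold lower in PC3, set against 3 counts, and 11.5-fold lower in DU145 (2.85 to 101). MAT2A, the form used by most other tissues, was at 944 normalised CPM in PC3, 315 in DU145 and 241 in LNCAP, 3.92-fold higher in PC3 than in LNCAP (3.78 to 4.06) and just under the 4-fold limit. MTAP, which cleaves methylthioadenosine, was at 89.1, 65 and 62.8 normalised CPM in PC3, DU145 and LNCAP. APIP, of the salvage route, was 4.07-fold higher in PC3 than in DU145 (3.36 to 4.96). None of the 4 genes of the hypusine pathway, which uses spermidine to modify the translation factor EIF5A, was 4-fold apart in any comparison. Over all genes tested, 8.54% to 13.7% were called per direction, so 0 of 4 is near that share. At 2-fold in DU145 against LNCAP, EIF5A was 2.2-fold higher (22.9% of all genes tested). EIF5A2 was 2.97-fold and DHPS 2.44-fold lower (23.1%). EIF5A itself was at 440, 855 and 388 normalised CPM in PC3, DU145 and LNCAP.

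Among 8 tested transport genes, SLC22A2, an organic cation transporter, had no counts in PC3 or DU145 and 249 in LNCAP, at least 81.1-fold lower in PC3 and at least 83.2-fold lower in DU145. DU145 stood out by GPC1, a heparan sulfate proteoglycan linked to polyamine uptake, and by the cation exporter gene SLC47A1. GPC1 was at 57.2 normalised CPM in PC3, 301 in DU145 and 20 in LNCAP, 15.1-fold higher in DU145 than in LNCAP (13.5 to 17). SLC47A1 had 8 counts in PC3, 222 in DU145 and 3 in LNCAP, 73.8-fold higher in DU145 than in LNCAP (24.9 to 361). GPC1 and SLC47A1, with SLC22A3, were 4-fold lower in PC3 than in DU145, by 5.27-fold (4.91 to 5.67), 27.1-fold (13.5 to 63.5) and 8.73-fold (5.49 to 14.6). The polyamine pump genes ATP13A2 and ATP13A3 were under 2-fold apart in all 3 comparisons. Of the paralogs OAZ3, AZIN2, SAT2 and SATL1, 3 were tested and none was 4-fold apart, beside 8.54% to 13.7% of all genes tested per direction.

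**Figure D4:**
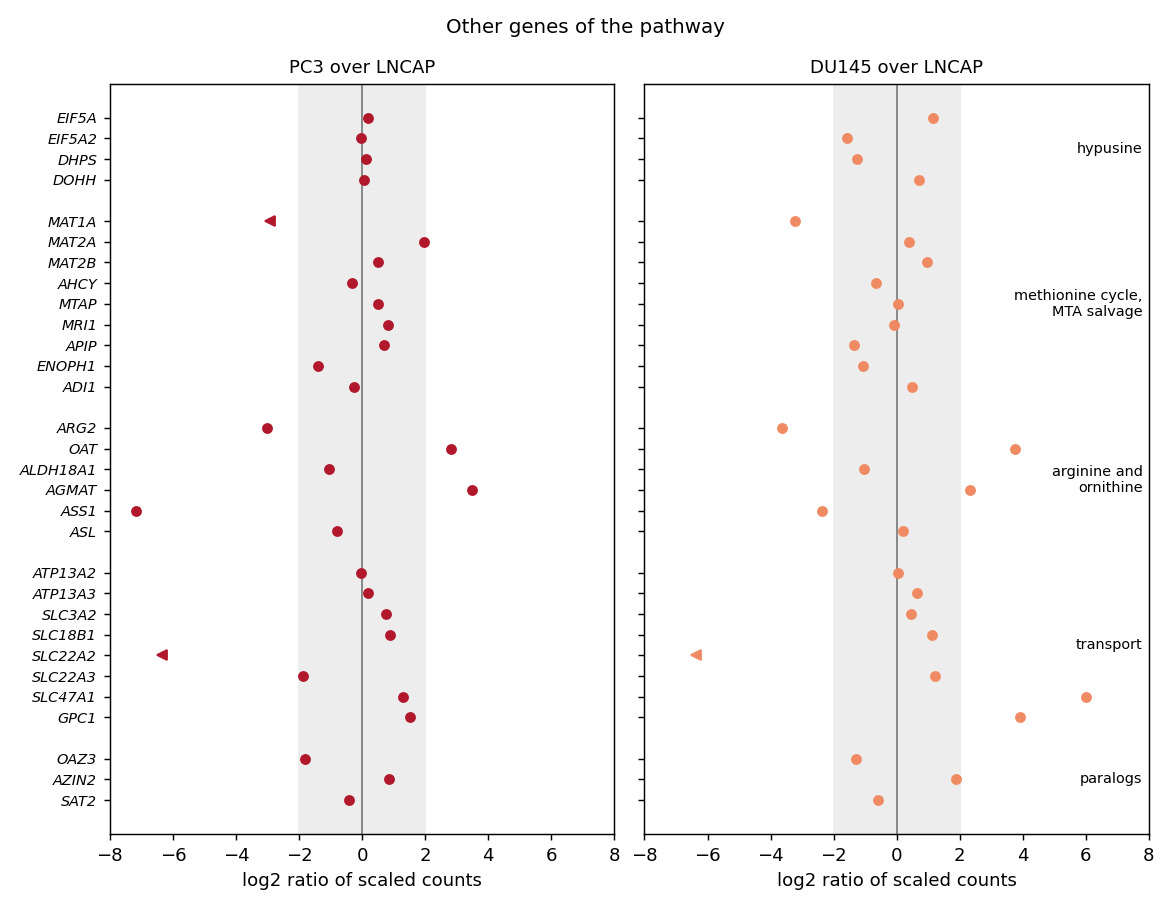
Log2 ratios of scaled counts for the 30 tested genes of the surrounding pathway, PC3 over LNCAP and DU145 over LNCAP, by list. Grey marks less than 4-fold, and arrowheads mark ratios with 3 counts put in place of 0. ARG2 lies at -3.03 and -3.64 and OAT at 2.81 and 3.77, beyond 4-fold in both lines, while the hypusine genes stay within it.

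The map position of the 4 genes called 4-fold apart was read last, with a window chosen after their values were seen. Of 11 other tested protein-coding genes starting within 1 Mb of AMD1, 4 were 4-fold lower in PC3 than in LNCAP and 3 were lower in DU145, beside 13.4% and 12.1% of all genes tested. DDO, called in both lines, was at 0 in PC3 and DU145 and 8.25 normalised CPM in LNCAP. The median log2 ratios of the 11 neighbours were -1.51 in PC3 and -1.34 in DU145. The nearest were CDK19, starting at -58.8 kb (upstream), at 41.9 normalised CPM in PC3, 28.8 in DU145 and 388 in LNCAP, and GTF3C6, starting 83.8 kb downstream, at 26.5, 44.3 and 130. RPF2, starting 107 kb downstream, was at 38.5, 38.9 and 109 normalised CPM in PC3, DU145 and LNCAP, and SLC16A10, starting 213 kb downstream, at 0.72, 1.59 and 16.6. AMD1 and these 4 genes were all highest in LNCAP, whereas REV3L, starting 609 kb downstream, was at 55, 52.3 and 51.9 normalised CPM. FYN, starting 999 kb downstream, was the neighbour called 4-fold higher in PC3, at 25.3, 3.7 and 1.6 normalised CPM.

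The 9 neighbours of SAT1 had median log2 ratios of -0.41 in PC3 and -0.61 in DU145. ACOT9, starting at -16.7 kb, was at 62.2 normalised CPM in PC3, 59.9 in DU145 and 46.7 in LNCAP. Only DDX53, at 0, 0 and 3.45 normalised CPM, was 4-fold lower in PC3 or DU145 (13.4% and 12.1% of all genes tested). At 2-fold, 1 was higher and 3 lower in PC3 (22.6% and 23.6%), and 0 higher and 4 lower in DU145 (22.9% and 23.1%). In DU145 APOO and PDK3, at log2 ratios of -1.88 and -1.71, lay close to SAT1 at -1.76. SMS, which ends 1.79 Mb before SAT1 on the same chromosome, was 1.69-fold lower in PC3, against 19.2-fold for SAT1, and 2.5-fold lower in DU145, against 3.4-fold for SAT1. SMOX had a higher ratio than each of its 21 neighbours but ADRA1D in PC3. Of these neighbours, 4 were 4-fold higher in PC3 and 1 in DU145, beside 13.0% and 13.7% of all genes tested. At 2-fold, 10 were higher and 0 lower in PC3 (22.6% and 23.6% of all genes tested). In DU145 3 were higher and 4 lower at 2-fold (22.9% and 23.1%). The median log2 ratios of the 21 neighbours were 0.84 in PC3 and -0.47 in DU145. ADRA1D, with 0 counts in LNCAP, was called in both lines, although set against 3 LNCAP counts its log2 ratio in DU145 was 1.87. ODC1 had 15 neighbours, of which 3 were 4-fold higher in PC3 and 4 in DU145 (against the same 13.0% and 13.7%). Among those called, KCNF1 (in both lines) and CYS1 (in DU145) had 0 counts in LNCAP. They passed the filter of 1 CPM only through DU145, at 4.34 and 1.98 normalised CPM. ODC1 itself was lower in DU145.

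**Figure D5:**
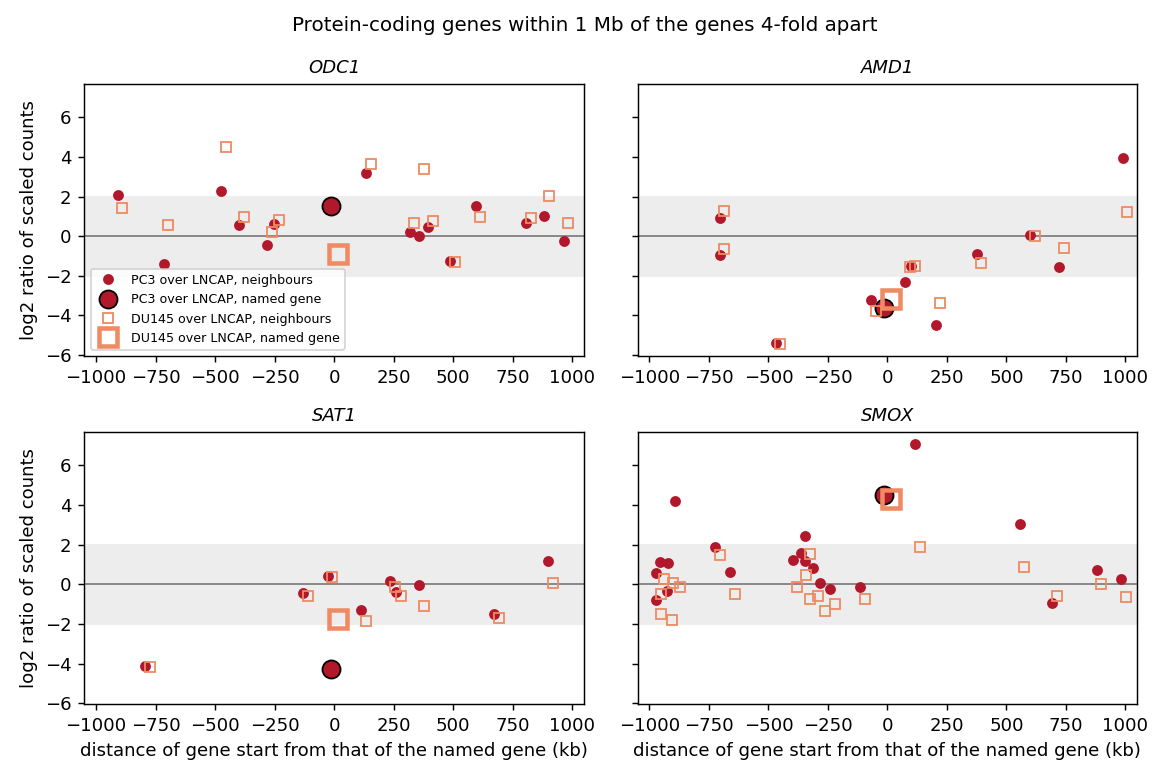
Log2 ratio of scaled counts against distance of the gene start (kb, downstream positive) for tested protein-coding genes within 1 Mb of ODC1, AMD1, SAT1 and SMOX. PC3 (filled circles) and DU145 (open squares) are each over LNCAP. Large symbols are the named genes, and grey marks less than 4-fold. Genes with 0 counts in a library are drawn with counts under 3 raised to 3. AMD1 at -3.61 and -3.16 has CDK19 (-3.21 and -3.75) and GTF3C6 (-2.29 and -1.55) beside it, while the neighbours of SAT1 other than DDX53 lie within 4-fold. SAT1 itself is also within 4-fold in DU145, at -1.76.

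The genes most like SMOX and SAT1, the 2 polyamine genes with the widest range over the lines, were sought by the distance between their pairs of log2 ratios against LNCAP, among 10932 protein-coding genes at 1 CPM or more in each library. For SMOX they were CLPTM1 (distance 0.14), CRABP2 (0.15) and CDC42EP1 (0.19), and 4 genes lay within 0.25. For SAT1 they were IFIH1 (0.18), RETREG1 (0.2) and CASZ1 (0.2), and 3 genes lay within 0.25. With 3 libraries, such likeness rests on 2 ratios that share the LNCAP library.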

How the data were processed

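Libraries were made from 4 ug of total RNA each, per the labels' protocols. The authors deposited whole-number counts per gene and FPKM values. Each deposited FPKM equals the count over the listed gene length and a library constant, which equals the DESeq2 size factor times the geometric mean of the totals. Without roles, the submitters' processing notes list TopHat2 2.0.9 and Bowtie2 2.0.6, and also Cuffdiff 2.1.1 and Cufflinks 2.1.1. Counter, strandedness and genome build were not given in the sources used here; since each of the 58735 identifiers matched GENCODE 29 in its coordinates, positions are on GRCh38.

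Counts were scaled with TMM factors of 0.998 (PC3), 0.987 (DU145) and 1.02 (LNCAP), from the 18025 genes that reached 1 CPM in any library. Ratios carry exact conditional binomial (Clopper-Pearson) 95% intervals, and levels exact Poisson intervals. Both cover counting error only, as each line has 1 library. Duplicate reads of a molecule cannot be recognised, and any present would make the intervals too narrow. Ratios with 3 counts put in place of 0 are rough values, and their 95% limits can lie nearer to 1. The class comparison used edgeR 4.0.16 (R 4.3.3) with Benjamini-Hochberg adjustment over all genes, with DESeq2 1.42.0 and limma 3.58.1 as alternatives. Ratios were computed in Python 3.11.15 with scipy 1.17.1 and pandas 2.3.3. The code for calls was tried on simulated Poisson counts and that for the edgeR fit on counts simulated with a preset spread. Neither simulation took its spread from these lines, so they check the code and not the error rates in these data. All 10 members were named, and every other pathway gene 4-fold apart; MAT2A, MTAP, EIF5A, ATP13A2, ATP13A3 and the map neighbours were picked with their values in view. The members and lists were chosen with earlier results of these data known.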

Additional observations from a re-analysis of the deposited data

Results flagged for a closer look

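In 3 of the 10 genes, and in 12.7% of all genes tested, PC3 and DU145 lay on opposite sides of LNCAP beyond counting error, although the series puts both lines in the same class. The log2 ratio to LNCAP was 1.5 in PC3 and -0.89 in DU145 for ODC1, 0.28 in PC3 and -1.21 in DU145 for SRM, and -0.72 in PC3 and 0.17 in DU145 for OAZ1. With 1 library per line the difference between the lines was not tested against replicates; both ratios share the LNCAP library.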

How the results depend on the processing

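Across 3 scalings, 5 added counts, and FPKM with 0.1 or 1 added, none of 180 recomputed log2 ratios of the 10 genes reversed, 4 moved beyond counting error and none changed its 4-fold call; the largest move was 0.387, for SMOX in PC3 against LNCAP with 1 added to FPKM. Other scalings moved the median of all genes by at most 0.0414. The count of genes 4-fold apart was 3, 2 and 2 in PC3 against LNCAP, DU145 against LNCAP and PC3 against DU145 under those settings and both other filters. With a 2-fold call it became 5 in PC3 against LNCAP, 5 in DU145 against LNCAP and 3 in PC3 against DU145, because the limit is lower. With 1 added to FPKM, the surrounding pathway genes 4-fold apart numbered 3, 4 and 2 in these comparisons, against 6, 8 and 5. In the class comparison DESeq2 called 2 of the 10 genes (SMOX and AMD1), edgeR and limma-voom none; the cause was not tested. Without PC3 or without DU145 the class fold change is a ratio of 2 libraries with no test. Its sign then turned for 4 genes, with log2 values from -0.89 to 1.5 for ODC1, -1.21 to 0.28 for SRM, -0.72 to 0.17 for OAZ1 and -0.11 to 0.24 for PAOX. Shares of the summed FPKM moved beyond counting error in 56 of 60 recomputations by counts or by transcript length (the transcript lengths were added after seeing the data). By counts the control genes held 22.6% and the breakdown genes 18.4% in LNCAP, the reverse of their FPKM order. By transcript length the synthesis and breakdown genes of DU145 held 22.1% and 22.5%. Depth limits PAOX most, at 82 counts or fewer per library. No paired analysis was possible because each line has 1 library and the labels give no replicate numbers.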
